A study of Mus musculus with 9 samples.

Results

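CTCF occupancy in wild-type (WT) CD8+ T cells kept for 72 h in culture with IL-7 and IL-15 was set against that in naive WT CD8+ T cells at 0 h. The comparison rests on 4 of the 9 libraries of the study, 2 of the 72 h group and 2 of the naive group. The peak lists of these libraries were each cut to the 17335 peaks of highest −log10 p, the length of the shortest list, and then limited to chromosomes 1 to 19. Peaks overlapping by at least 1 bp were then merged, which gave 21464 regions. The WT mice carried the hCD2-Cre transgene and a Rosa26-lsl-GFP reporter with intact Tcf1 and Lef1. Spleen cells of the phenotype GFP+ TCRbeta+ CD62Lhi CD44lo-med CD8+ were sorted for both groups, and the live cells were profiled. A second pair of groups, 72 h and naive cells of mice in which Tcf1 and Lef1 were floxed and deleted through the same Cre (DKO, 2 libraries each), took no part in choosing the regions and is used below only to look WT regions up. The hCD2-Cre transgene is active in lymphoid cells, and the GFP gate restricted the sort to cells in which it had acted. Peak lists carry no expression values, so the sorted phenotype could not be checked against marker genes. The labels do not say that replicates came from separate animals, so the spread between libraries may be technical.

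CTCF is a zinc-finger protein that binds a long DNA motif at insulator elements and loop anchors, where it halts loop extrusion by cohesin. Most of its sites are shared between cell types, and a minority differ. In CUT&RUN, a nuclease tethered to the antibody releases the DNA around the bound protein. A peak is a stretch where released fragments pile up above the background, and its summit is the highest point. IL-7 and IL-15 are cytokines of the common gamma chain family that maintain naive and memory CD8+ T cells. Fold enrichment, −log10 p and summit positions were taken from the authors' peak lists, and regions are given in mm9, the build named in the submitters' processing notes. No gene is named and no sequence is shown, because neither a genome nor an annotation for mm9 was used here.

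The lists of 72 h cells were the shorter ones. On chromosomes 1 to 19 the 72 h libraries held 16909 and 25940 peaks, against 31798 and 30234 in the naive libraries. The mean was 21424.5 ± 6386 peaks at 72 h and 31016 ± 1106 peaks in naive cells (SD, n = 2 each), a difference of -9591.5 peaks (exact two-sided permutation test over libraries, p = 0.333, which is the lowest value that 2 libraries against 2 can give). The groups did not overlap, but the 72 h libraries lay far apart. After the cut to equal length, the weakest peak kept had a −log10 p of 4.08 and 12.1 in the 72 h libraries, against 18.9 and 17.0 in the naive libraries. Median peak width was 511 and 692 bp at 72 h and 830 and 810 bp in naive cells. Median fold was 7.89 and 12.2 at 72 h and 17.0 and 15.7 in naive cells. A region missing from a 72 h list therefore shows only that no peak of sufficient strength was called there. The 72 h replicate 1 list entered whole, so weak peaks of that library were compared with stronger ones of the others. The IgG library held 5 peaks, of which 2 lay on these chromosomes, and 0 of the regions overlapped one.

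At equal length, 12573 of the 21464 regions (58.6%) had a peak in all 4 lists. A set of 1008 regions (4.70%) had a peak in both 72 h lists and neither naive list, and is called 72 h-only below. A set of 1203 regions (5.60%) had a peak in both naive lists and neither 72 h list, and is called naive-only. These shares are themselves the background for any region count below. The 72 h replicates disagreed on 4706 regions (21.9%) and the naive replicates on 2815 regions (13.1%). These counts are larger than either set, but they ask only that 2 lists differ, while a set fixes all 4. Regions with a peak in a single list of each group, which also fix all 4 lists, numbered 212, 221, 193 and 215 for the 4 combinations (0.899% to 1.03%). With 2 libraries against 2, no single region can reach an exact p below 0.333, so the sets are described without a test.

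**Figure D1:**
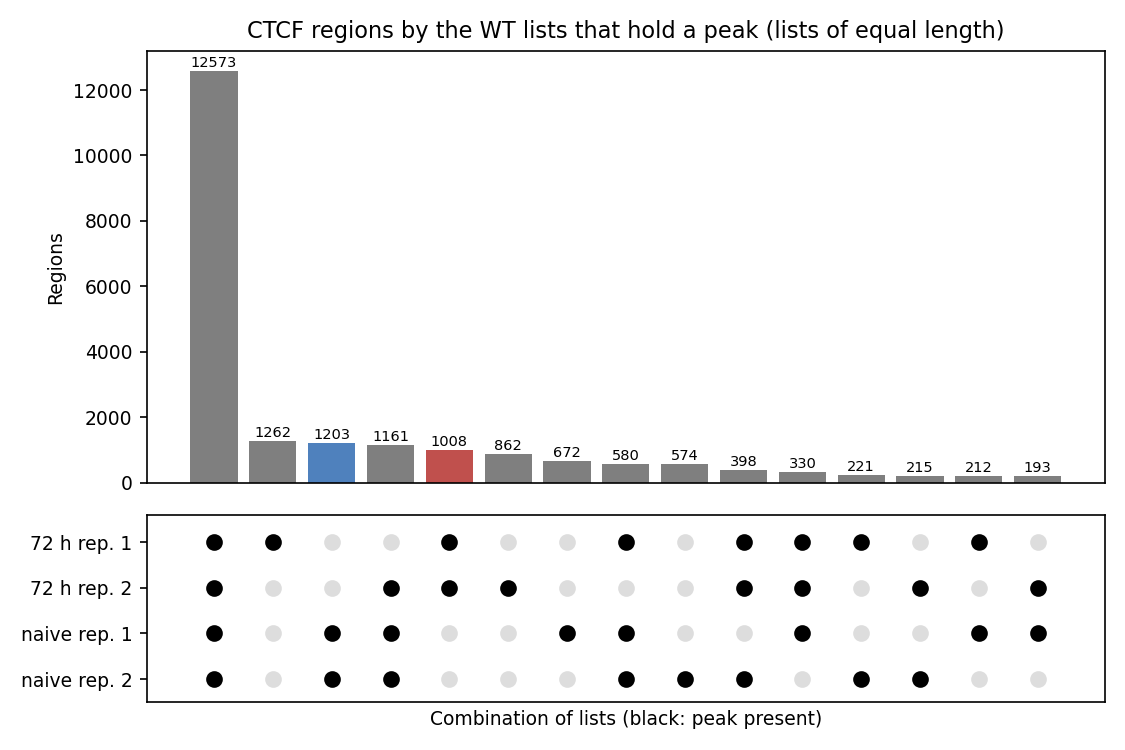
Number of regions (vertical axis) for each combination of the 4 WT peak lists of equal length, with black dots marking the lists that hold a peak. Regions in all 4 lists (12573) outnumber every other combination. The 72 h-only set (red) holds 1008 regions and the naive-only set (blue) 1203. Regions of a single list number 1262 and 862 for the 72 h libraries and 672 and 574 for the naive libraries.

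The size of these sets depended on list length. With the full lists, in which the 72 h libraries have fewer peaks, the merge gave 35373 regions, with 195 in the 72 h-only set and 5072 in the naive-only set. With 10000 peaks per list the counts were 656 and 713. The 72 h-only count was 1870 without 72 h replicate 1 and 2270 without 72 h replicate 2. The naive-only count was 2364 without 72 h replicate 2 and 1875 without naive replicate 2. Smaller counts came from the other omissions, 1338 and 1406 for the 72 h-only set without naive replicate 1 or 2. For the naive-only set they were 1783 without 72 h replicate 1 and 1777 without naive replicate 1. A region has to meet the rule in fewer lists once a library is left out. This raises all these counts by construction, so they do not show that the sets depend on single libraries.

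Strong regions were kept almost without exception. Regions present in both lists of one group were ranked by their mean −log10 p percentile and divided into 10 classes of about equal size. Of the strongest class of 72 h regions, 99.8% had a peak in both naive lists and 0.140% in neither (n = 1431 regions). Of the strongest class of naive regions, 99.4% had a peak in both 72 h lists and 0.0644% in neither (n = 1552 regions). The weakest class differed most. There, 51.5% of 72 h regions (95% exact binomial interval 48.9% to 54.1%) had a peak in both naive lists, and 43.2% of naive regions (40.7% to 45.7%) had one in both 72 h lists. In the fifth class from the bottom the shares were 94.6% of 72 h regions and 85.6% of naive regions. Of the 72 h-only regions, 15 of 1008 had a mean rank in the top 25% of its lists, as had 13 of the 1203 naive-only regions.

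Most 72 h-only regions were sites where the naive lists also held a peak, below the cut to equal length. In the uncut naive lists, 864 of the 1008 (85.7%) had a peak in replicate 1 and 845 (83.8%) in replicate 2. Both naive lists held a peak at 810 (80.4%), and neither did at 109 (10.8%). The strongest 72 h-only region was chr2:93264588-93265418, with folds of 11.7 and 29.8 in the 72 h libraries. Its uncut naive lists held weaker peaks there, with folds of 6.63 and 5.98. The region stood at the 79.0 and 96.7 fold percentile of the 72 h lists, where 100 is the strongest peak.

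The next strongest 72 h-only regions had the same form. At chr14:25981119-25981848 the folds were 16.6 and 29.4 in the 72 h libraries and 10.1 and 8.80 in the uncut naive lists. At chr11:70617102-70617791 they were 13.9 and 26.8 in the 72 h libraries, against 8.41 and 9.78 in the uncut naive lists. At chr9:21456358-21457052 they were 16.4 and 21.6 in the 72 h libraries, against 5.03 and 5.87 in the uncut naive lists. All 8 of the strongest 72 h-only regions had a naive peak in at least 1 uncut list, and 6 of them in both. In DKO cells, 7 of the 8 had a peak in both 72 h lists and 6 of the 8 had one in both naive lists, with no cut to equal length.

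The 109 regions without any naive peak were mostly weak. Their median fold was 6.89 in 72 h replicate 1 and 10.6 in replicate 2, and 22 of them were above the middle rank of their lists. The 4 strongest of them are named here after their values were seen. At chr10:117877536-117878146 the 72 h folds were 13.1 and 20.9, and at chr15:61239614-61240510 they were 13.1 and 14.2. At chr2:29549526-29550445 they were 14.1 and 17.6, and at chr7:75416735-75417049 they were 12.4 and 18.3. The first of them had a peak in both uncut DKO naive lists (folds 7.94 and 4.74), and the last 2 had none in any DKO list. At chr15:61239614-61240510 the DKO 72 h lists held peaks of fold 5.12 and 11.4 and the DKO naive lists none. Of the 109, 50 (45.9%) had a peak in at least 1 DKO 72 h list, and 27 (24.8%) in at least 1 DKO naive list.

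Naive-only regions could be looked up in the uncut list of 72 h replicate 2 alone, since the list of replicate 1 was already whole. It held a peak at 623 of the 1203 (51.8%), which left 580 (48.2%) with no 72 h peak at all. The strongest was chr10:18781672-18782830, with −log10 p of 136 and 95.8 in the naive libraries and no 72 h peak. Its fold there was only 11.99 and 9.62, the 21.8 and 11.2 percentile of fold. In DKO cells the region had folds of 10.9 and 10.9 in the naive libraries and no 72 h peak.

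The strongest naive-only regions by −log10 p differed in fold. At chr3:115518154-115519327 the naive folds were 8.58 and 7.33, and at chr5:134745246-134746168 they were 7.10 and 6.30, low values for peaks of such rank by −log10 p. At chr12:45369375-45370704 the folds were 17.9 and 16.9, near the middle of the naive lists (54.2 and 55.6 fold percentile). At chr17:8176207-8176523, a narrow region of 317 bp, the naive folds were 39.2 and 29.4, the 94.4 and 88.2 fold percentile. Of the 8 strongest, 7 had a peak in both DKO naive lists and 7 had none in either DKO 72 h list. The exception in the DKO 72 h libraries was chr17:8176207-8176523, with a fold of 15.1 in replicate 1 and no peak in replicate 2.

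Naive-only regions had a low fold for their −log10 p, and 72 h-only regions did not. Among regions at the 20 to 40 percentile of mean −log10 p, the 424 naive-only ones had a median fold percentile of 11.8 and 12.4 in the naive libraries. The 2264 regions found in all 4 lists with the same −log10 p percentile had 38.3 and 39.7 in those libraries. At the 60 to 80 percentile the 38 naive-only regions had 13.4 and 11.5, against 73.2 and 73.3 for the 3222 found in all 4 lists. In the 72 h libraries, the 402 72 h-only regions at the 20 to 40 percentile had 34.3 and 33.6, against 33.0 and 32.1 for the 2265 found in all 4 lists. The DKO naive libraries did not enter the choice of regions. Percentiles were taken there within uncut lists, so the bins are not those of the cut WT lists and the size of the gap cannot be compared. In the uncut DKO naive lists the gap varied with the bin. At their 60 to 80 percentile, 350 naive-only regions had median fold percentiles of 51.7 and 50.5, against 73.2 and 74.1 for 4737 regions found in all 4 WT lists. At the 40 to 60 percentile, which holds the most naive-only regions, 493 of them had 45.7 and 48.1, against 56.2 and 59.3 for 1791 regions. At the 80 to 100 percentile, 35 naive-only regions had 57.3 and 55.2, against 90.2 and 90.7 for 5699 regions. At the 0 to 20 percentile the order was the other way, with 18.04 and 21.5 for 16 naive-only regions against 15.9 and 15.3 for 22 regions.

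**Figure D2:**
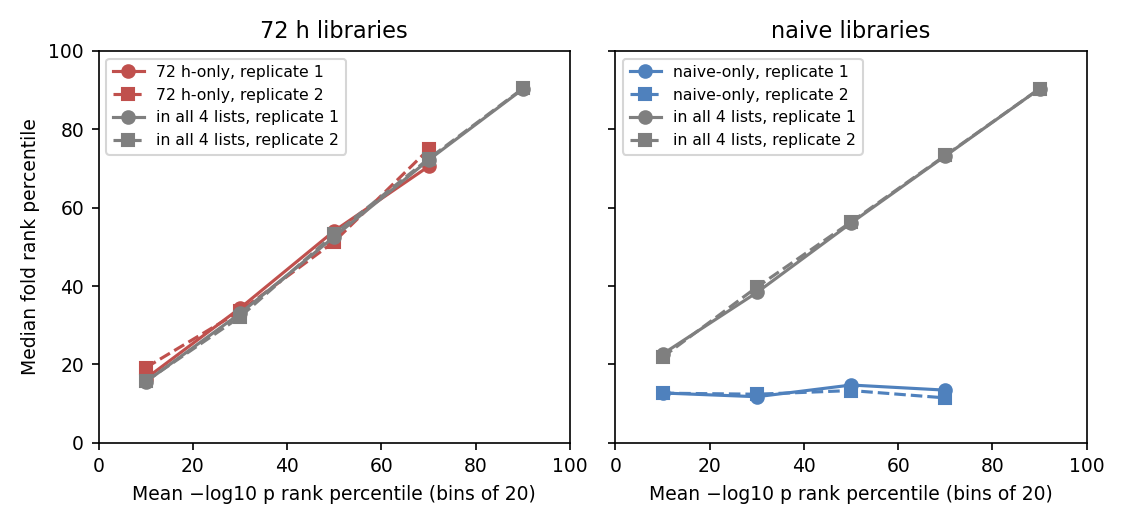
Median fold percentile within a list (vertical axis) of group-only regions and of regions in all 4 lists, by bin of mean −log10 p percentile (horizontal axis, bins of 20 points with at least 20 regions), in the 72 h libraries (left) and the naive libraries (right). The 72 h-only line runs along that of regions in all 4 lists, while the naive-only line stays flat, at 11.8 and 12.4 in the bin of 20 to 40.

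The lowest fold in each of the 4 lists was 4.0, so a site whose fold lies under 4 is in no list. The median fold of naive-only regions was 10.6 and 9.80 in the naive libraries, against 20.2 and 18.5 for regions found in all 4 lists. Median folds of 72 h lists were lower than those of naive lists (above). As a rough description, mean naive folds were multiplied by the median ratio of 72 h fold to mean naive fold over the regions found in all 4 lists, which was 0.465 for 72 h replicate 1 and 0.721 for replicate 2. So scaled, 382 of the 1203 naive-only regions (31.8%) came out under fold 4 for 72 h replicate 1 and 62 (5.15%) for replicate 2. Of the regions found in all 4 lists, 0.891% and 0.0159% did. When lists were cut by fold in place of −log10 p, the counts were 940 for the 72 h-only set and 1023 for the naive-only set. Of the 8 named naive-only regions, 3 were still naive-only under that cut, and 6 of the 8 named 72 h-only regions were still 72 h-only.

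Groups and replicates were also compared through whole lists. The base-pair Jaccard index, the length shared by 2 lists over the length covered by either, was 0.609 between the 72 h replicates and 0.755 between the naive replicates. Across groups it was 0.487 and 0.505 for 72 h replicate 1 and 0.619 and 0.638 for 72 h replicate 2, against naive replicates 1 and 2. By base pairs, the 72 h replicate 2 list thus overlapped each naive list slightly more than it overlapped its own replicate. The index also depends on covered length, which was 9.20 and 12.5 Mb in the 72 h lists and 15.4 and 14.8 Mb in the naive lists. It therefore does not show that this list shares more regions with the naive lists. The order of fold values at the 12573 shared regions showed a clearer division. Its Spearman rho across regions was 0.825 between the 72 h replicates and 0.878 between the naive replicates, and 0.768 to 0.784 across groups. Regions of one library are not independent, so no p is given.

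At the 12573 shared regions, ranks by fold were compared with limma on normal scores, with Benjamini-Hochberg adjustment over all of them. It called 5 regions higher at 72 h (0.0398%) and 1 region lower (0.00795%). An unadjusted p under 0.05 was reached by 1902 of the 12573 regions, 828 higher and 1074 lower. If no region differed and the assumptions of the test held, a share of 0.05 would reach it on average. Without naive replicate 1 or naive replicate 2, limma made 0 calls in either direction, and 892 and 973 regions had an unadjusted p under 0.05. Without 72 h replicate 1 there were 10 higher and 15 lower, and without 72 h replicate 2 there were 35 higher and 71 lower. When the same 12573 regions were ranked by −log10 p the split was 210 higher and 162 lower. All 372 of these had the same sign by fold, and 5 of the 6 called by fold were among them.

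The 1 region called lower at 72 h was chr7:135526935-135528162. Its folds were 4.58 and 6.32 in the 72 h libraries and 52.2 and 53.2 in the naive libraries. It stood at the 6.17 and 3.48 fold percentile at 72 h, against 98.5 and 99.3 in naive cells. By fold it thus went with the weakest peaks of the 72 h lists and the strongest of the naive lists. By −log10 p it stood near the middle of the 72 h lists, at the 45.9 and 42.8 percentile, against 99.6 and 99.8 in naive cells. The difference in fold rank was -3.998 ± 0.26 normal-score units (SE, limma adjusted p = 0.00134). The DKO libraries had folds of 5.03 and 10.7 at 72 h and 51.3 and 55.2 in naive cells. In DKO cells its fold percentile was 14.6 and 57.4 at 72 h, and 96.9 and 97.5 in naive cells.

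Of the 5 regions called higher, chr8:87497887-87501674 differed most. Its folds were 20.6 and 25.03 in the 72 h libraries, against 7.97 and 7.75 in the naive libraries, and its fold percentiles were 97.7 and 92.6 at 72 h, against 4.47 and 4.74 in naive cells (difference 3.40 ± 0.29, limma adjusted p = 0.00758). This region is 3788 bp wide. In DKO cells it ranked high in both groups, with fold percentiles of 94.1 and 93.3 at 72 h and 93.2 and 90.6 in naive cells. The DKO libraries thus did not show the rank difference of the WT libraries here. In uncut lists the DKO summits lay at 87498352 and 87498440 at 72 h and at 87498370 and 87498320 in naive cells. The WT summits lay at 87498463 and 87498458 at 72 h and at 87499570 and 87499530 in naive cells. The WT and DKO naive ranks thus belong to different places within the region.

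At chr4:46401644-46403963 the fold percentiles were 97.5 and 98.8 at 72 h, against 38.8 and 25.4 in naive cells (limma adjusted p = 0.0100). In DKO cells they were 98.5 and 92.6 at 72 h, against 1.33 and 1.34 in naive cells, a difference of the same direction. At chr2:84293850-84296079 the WT percentiles were 89.0 and 92.7 at 72 h, against 10.2 and 8.63 in naive cells (limma adjusted p = 0.0146). The DKO percentiles were again apart, 71.6 and 65.9 at 72 h against 4.93 and 5.60 in naive cells. At chr15:98822956-98825156 the WT percentiles were 93.3 and 96.3 at 72 h, against 30.1 and 15.5 in naive cells (limma adjusted p = 0.0256). The DKO groups overlapped there, with 65.3 and 20.5 at 72 h and 64.7 and 3.60 in naive cells. The last called region, chr2:25281799-25283151, is named after its values were seen. Its WT percentiles were 99.5 and 98.6 at 72 h, against 69.8 and 73.9 in naive cells (limma adjusted p = 0.0265). In DKO cells the percentiles were 99.7 and 99.6 at 72 h and 99.7 and 99.4 in naive cells, so the DKO libraries did not show the WT difference.

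**Figure D3:**
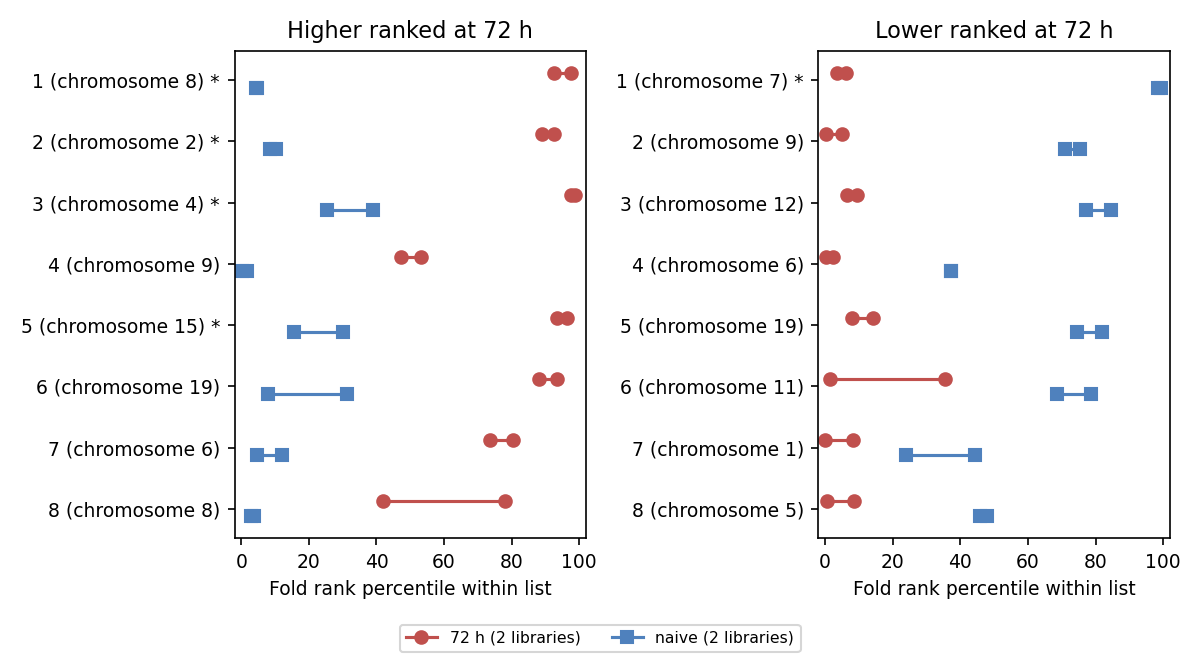
Fold percentile within each list (horizontal axis, 100 is the strongest peak) in the 2 libraries of each group, 72 h in red and naive in blue. Shown are the 8 shared regions in each direction with the largest normal-score difference of fold rank, among those whose groups do not overlap. Normal scores stretch the ends of the scale, so these are not the 8 largest differences in percentile points. Stars mark regions called by limma; at chr7:135526935-135528162 (first in the right panel) the 72 h values of 6.17 and 3.48 lie opposite the naive values of 98.5 and 99.3.

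At 4 of the 5 regions called higher, the summit lay at another place at 72 h than in naive cells. The mean 72 h summit and the mean naive summit lay 1089.5 bp apart at chr8:87497887-87501674 and 1216.5 bp apart at chr4:46401644-46403963. They lay 924 bp apart at chr2:84293850-84296079 and 935.5 bp apart at chr15:98822956-98825156. At these 4 regions the replicates of a group had summits within 66 bp of each other. In MACS2 output the fold of a peak belongs to its summit, so at these regions the ranks of the 2 groups belong to different places within one merged region. The median distance was 32 bp over all shared regions, and it was over 500 bp at 111 of them (0.883%). When summits were chained into regions in place of peaks, each within 100 bp of the next along the chromosome, limma called 1 region higher, chr2:25281799-25283151 (adjusted p = 0.0482), and 1 lower, chr7:135526935-135528162 (adjusted p = 0.000677).

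Regions with such a displaced summit were then collected by a rule set after these values were seen. Both groups had to keep the summit within 100 bp between replicates, which held for 9416 shared regions, and the group means had to lie over 500 bp apart. This gave 41 regions (0.435%), with distances of 513.5 to 1854 bp and a median of 1005.5 bp. They were wide, with a median width of 2071 bp against 936 bp for all shared regions. By fold, 27 of the 41 had both 72 h ranks above both naive ranks and 6 had both below, against 20.6% and 27.4% of all shared regions.

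The DKO libraries, here with uncut lists, took no part in this rule. In the DKO 72 h libraries, 23 and 28 of the 41 regions had their summit within 100 bp of the WT 72 h summit, and 7 and 7 had it within 100 bp of the WT naive summit. In the DKO naive libraries, 10 and 7 had it near the WT 72 h summit, and 27 and 29 near the WT naive summit. All 4 DKO libraries followed the WT groups at 11 of the 41, and 0 regions had all 4 the other way round. The DKO summits were all near the WT naive summit at 4 regions and all near the WT 72 h summit at 2. The remaining 24 regions were mixed, which includes DKO summits near neither position and missing DKO peaks. The widest displacement was at chr11:72860982-72863556. Its summits were at 72863154 and 72863144 in the WT 72 h libraries and at 72861295 in both WT naive libraries. In DKO cells they were at 72863182 and 72863177 at 72 h and at 72861288 and 72861272 in naive cells.

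**Figure D4:**
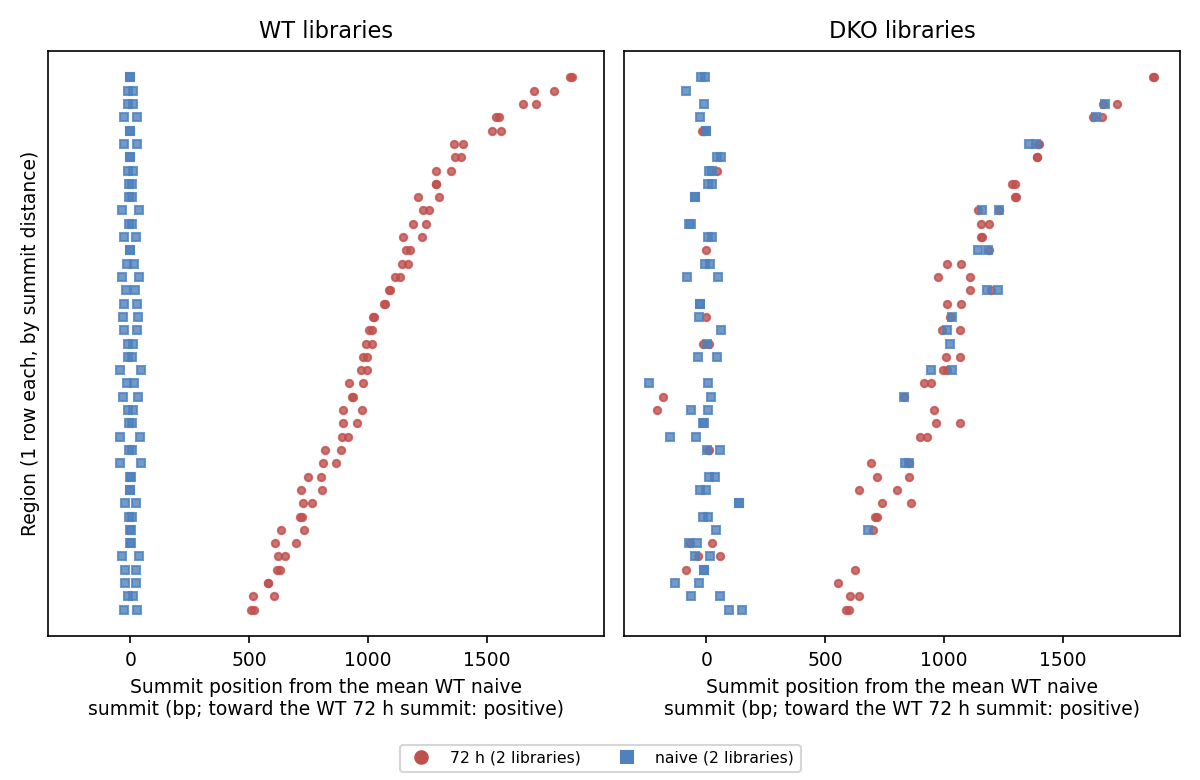
Summit position in each library, in bp from the mean WT naive summit and counted positive toward the WT 72 h summit (horizontal axis), for the 41 regions with a displaced summit (1 row each), in WT libraries (left) and DKO libraries (right). The WT groups lie apart by the rule that chose them, by 513.5 to 1854 bp, and the DKO 72 h summits (red) lie near the WT 72 h position at 23 and 28 of the 41 regions.

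Most other rank differences were small. Both 72 h ranks were above both naive ranks at 2591 shared regions (20.6%) and below them at 3445 (27.4%). Re-ranked among the shared regions alone, the counts were 2900 and 3070, and by −log10 p they were 3177 and 3075. The rank difference between 72 h and naive cells had a median of -1.09 percentile points and an SD of 14.9 points across regions. Of the 12573 shared regions, 111 ranked higher at 72 h and 104 ranked lower with the groups apart and a mean difference of at least 40 points. The group summits lay over 500 bp apart at 13 of the 111 (11.7%) and 1 of the 104 (0.962%), against 0.883% of all shared regions. At those regions the ranks belong to different places. Among regions lower at 72 h that limma did not call, chr9:58499612-58500570 had folds of 4.04 and 6.65 at 72 h and 22.8 and 22.6 in naive cells (limma adjusted p = 0.0571). At chr12:113789982-113790829 they were 4.86 and 6.97 at 72 h, against 29.5 and 23.4 in naive cells (limma adjusted p = 0.0571). Among those higher, chr19:34681456-34682506 had folds of 16.4 and 22.3 at 72 h and 13.4 and 8.79 in naive cells (limma adjusted p = 0.0571), with fold percentiles of 93.3 and 88.1 at 72 h against 31.2 and 8.05 in naive cells.

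The 5 shared regions of highest mean rank were chosen on all 4 WT lists, so their high rank in each library follows from that choice and is only described. The first, chr4:135475880-135477007, had folds of 49.4 and 83.8 in the 72 h libraries, against 134 and 119 in the naive libraries. Over the 5, folds ran between 42.4 and 83.8 at 72 h and between 73.1 and 134 in naive cells.

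The WT sets were looked up in the DKO libraries, each cut to 10339 peaks, the length of the shortest DKO list. Among the 72 h-only regions, the share with a peak was 18.8% and 11.8% in the DKO 72 h libraries and 0.893% and 1.29% in the DKO naive libraries. Among the naive-only regions, it was 1.58% and 1.25% in the DKO 72 h libraries and 20.03% and 18.2% in the DKO naive libraries. Each set was thus more often found in the DKO libraries of its own time, in all 4 libraries. Regions found in all 4 WT lists had a peak in 71.7% and 74.2% at 72 h and 73.0% and 73.6% in naive cells. The uncut DKO lists, which differ in length, held 72 h-only regions at 18.8% and 56.3% at 72 h and at 74.8% and 76.8% in naive cells. The uncut DKO naive lists are the longer ones (30309 and 31394 peaks, against 10339 and 16234 at 72 h), and there the 72 h-only regions were found more often in naive cells. The uncut lists held naive-only regions at 1.58% and 13.2% at 72 h and at 85.8% and 87.4% in naive cells.

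**Figure D5:**
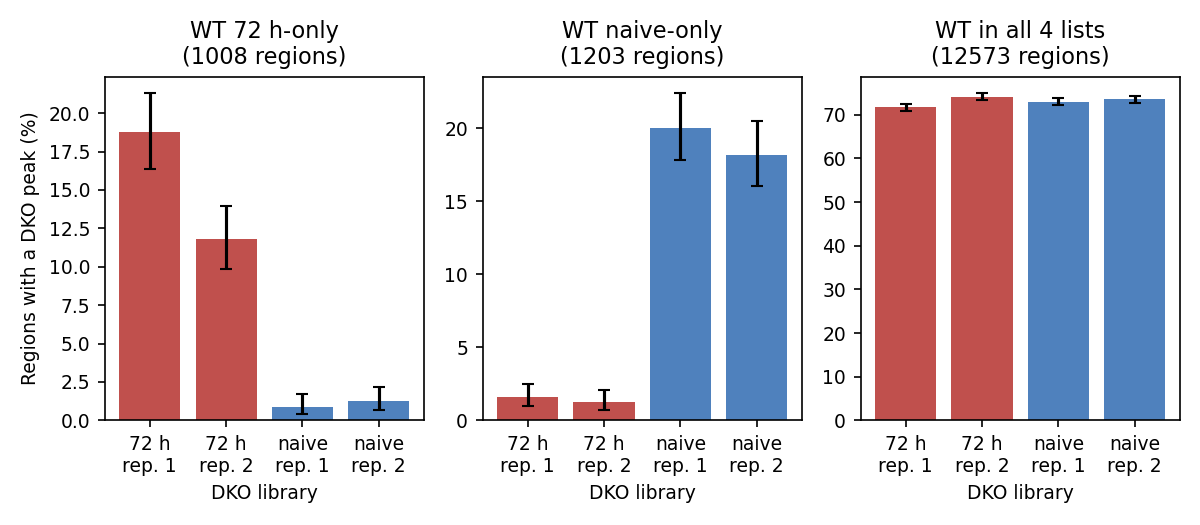
Share of WT 72 h-only regions (left), WT naive-only regions (middle) and regions in all 4 WT lists (right) with a peak in each DKO library cut to 10339 peaks (vertical axes, percent, each with its own scale), with exact 95% binomial intervals that cover counting error only. The 72 h-only regions were found in 18.8% and 11.8% of cases in DKO 72 h libraries and in 0.893% and 1.29% in DKO naive libraries.

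Where the WT groups lay apart in rank, the DKO groups lay apart in the same direction more often than in the opposite one, though not at most regions. Of the 1298 regions in all 8 lists whose WT 72 h ranks were both above the naive ones, 488 (37.6%) had DKO 72 h ranks both above the DKO naive ones and 159 (12.2%) both below. Of the 1933 with WT 72 h ranks both below, 154 (7.97%) had DKO 72 h ranks both above and 807 (41.7%) both below. Over all 6771 regions in all 8 lists, the DKO shares were 19.4% above and 27.6% below. The rank differences of WT and DKO cells had a Pearson r of 0.380 and a Spearman rho of 0.377 across these regions. The points share libraries and are not independent.

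Group-only regions were scattered over the chromosomes, with a few dense stretches of 500 kb or less. The densest stretch of naive-only regions was chr10:80140842-80639925, where 9 of 38 regions were naive-only. All 9 had a peak in both uncut DKO naive lists, and 1 had one in a DKO 72 h list. At chr2:31902613-32391172, 7 of 24 regions were naive-only, and at chr17:84417967-84819768, 7 of 19 were. Of these, 7 and 6 had a peak in both uncut DKO naive lists. The densest stretch of 72 h-only regions was chr14:56773975-56916238, with 5 of 9 regions. There, 4 of the 5 had a peak in both uncut DKO 72 h lists, and all 5 had one in at least 1 uncut DKO naive list. At chr1:60997998-61196476, 4 of 9 regions were 72 h-only, and at chr2:127748881-128206888, 4 of 14 were. At each of these, 1 of the 4 had a peak in both uncut DKO 72 h lists, and 3 and 2 had one in at least 1 uncut DKO naive list. In all, 16 such stretches tie at 4.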

How the data were processed

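CTCF CUT&RUN was compared between 72 h and naive WT cells, 2 libraries each, and looked up in 4 DKO libraries. The groups and replicate numbers come from the sample titles. The submitters' processing notes name FastQC, Bowtie2 2.2.5, MACS2 2.1.1 and build mm9. The control, the calling thresholds and the read depth are not given in the sources used here. One list belonged to each library, so peaks were not called on pooled samples. The fold ratios were deposited by the authors as the enrichment at the summit. The deposited values of −log10 p and −log10 q, the deposited score and the deposited summit distance in bp are those of the authors' peak caller, and the score entered no comparison. They served to describe peaks and to rank or filter them inside their own list, except that folds were scaled between lists once, to describe the fold limit.

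Peaks were cut to equal length, limited to chromosomes 1 to 19 and merged. A region took the highest fold and −log10 p of its peaks in a library, each turned into a percentile within the list. Normal scores of the fold ranks were fitted with limma 3.58.1 (trend, Benjamini-Hochberg threshold 0.05) in R 4.3.3. Other steps used Python 3.11.15 with numpy 2.4.6, pandas 2.3.3, scipy 1.17.1 and matplotlib 3.10.9. The functions were tested on simulated data. Intervals are exact Clopper-Pearson (95%) and cover counting error only.

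Regions chosen for description were the 8 strongest of each group-only set by −log10 p and the 5 shared regions of highest rank. The 8 shared regions of largest normal-score difference in each direction, among those whose groups do not overlap, and the 3 densest 500 kb stretches of each set were added. Not all of the chosen regions are named in the text. Members, lists and tests were chosen with earlier results of these data known. Alternatives were summits chained within 100 bp of the next, 50% overlap of the shorter peak, −log10 q of at least 5, full lists, a cut by fold, chromosomes limited first, 10000 peaks, other rank scales, a replicate block and leaving out each library. The planned look at gene loci and motifs was not run, because no mm9 genome or annotation was used here.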

Additional observations from a re-analysis of the deposited data

How the results depend on the processing

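Depth is unknown, so an absent peak does not show an absent site, and 2 libraries a group limit every comparison. The 72 h-only count stayed between 863 and 1244 and the naive-only count between 1002 and 1612 with summits within 100 bp, 50% overlap, −log10 q of at least 5, a cut by fold and chromosomes 1 to 19 taken first. With the full lists they were 195 and 5072, and with 10000 peaks per list 656 and 713, with 7019 regions in all 4 lists. Both settings change the number of peaks entered, and the cause of the changed counts was not tested. Leaving out each library gave 1338 to 2270 and 1777 to 2364. The Jaccard index between groups minus that within groups was -0.1201, and -0.1345 to -0.1074 under the alternatives. The summit and 50% overlap settings were not run for it, as it counts base pairs. The calls by limma were the least stable result. Regions called higher and lower at 72 h numbered 0 and 0 with untransformed percentiles (1830 with an unadjusted p under 0.05), 37 and 8 with ranks among shared regions, 210 and 162 with ranks by −log10 p, and 112 and 19 with full lists ranked among shared regions. They numbered 1 and 1 with summits chained within 100 bp and 15 and 3 among regions of above-median mean rank. Leaving out each library gave 0 to 35 and 0 to 71, with the lone library assumed to vary like the others. With the replicate block they numbered 36 and 12. Same-numbered libraries did not deviate together (correlation 0.00635 over 12573 regions, 2 pairs), so the numbers are not taken to pair the libraries. The difference at chr9:21170755-21172409, where the group summits lay 1070 bp apart, turned from 2.47 to -0.36 with ranks by −log10 p. For these changes in limma calls the cause was not tested. Of the named 72 h-only regions 0 of 8 were still 72 h-only in the full lists, where each had a naive peak.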

Other observations

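Chromosomes held group-only regions at different shares. The 72 h-only share ran between 2.44% on chromosome 18 (95% exact binomial interval 1.34% to 4.07%) and 7.21% on chromosome 16 (5.34% to 9.47%). The naive-only share ran between 3.68% on chromosome 16 (2.37% to 5.43%) and 7.01% on chromosome 10 (5.61% to 8.64%). Chromosome 16 thus stood highest for the 72 h-only set and lowest for the naive-only set, but it was picked out of 19 after the values were seen and no difference between chromosomes was tested.

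Naive-only regions lay in slightly denser surroundings than 72 h-only regions. Within 50 kb, a 72 h-only region had a mean of 1.34 regions found in all 4 lists, a naive-only region 1.58, and a region found in all 4 lists 1.45. Another region of the same set lay within 50 kb for 12.4% of 72 h-only regions and 21.9% of naive-only regions. The naive-only set is the larger one (1203 regions against 1008), which by itself raises this share, and no expected share was computed. Rank differences of adjacent shared regions under 20 kb apart had a Pearson r of 0.0631 over 3466 pairs of neighbours, too weak to count as a finding.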
